A study of Mus musculus with 8 samples.

Results

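The 10 genes described here encode the enzymes and the shared core of the complexes that methylate lysine 4 of histone H3 (H3K4). They were taken by name from the 21887 protein-coding genes of the RefSeq table for GRCm38.p6, which is the build of the peak coordinates (mm10). All 10 were found. The data are H3K36me3 ChIP-seq from feeder-free mouse embryonic stem cells (mESCs) that carried a doxycycline (Dox) inducible knockdown of Setd2, the main enzyme that trimethylates lysine 36. Control cells were Dox -, and Setd2 knockdown cells were Dox + at 1 µg/ml for 4 days. Both grew as spheres in 2i medium with PD0325901 at 1 µM, CHIR99021 at 3 µM and LIF at 1000 U/ml, so that the inducible construct and both kinase inhibitors were common to the groups. Each of the 4 groups (H3K36me3 ChIP and input in each condition) held 2 replicates, which the authors merged before peak calling. Each condition is therefore 1 peak list, no replicate spread exists, and no test between conditions was made.

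H3K4 methylation marks promoters and enhancers, whereas H3K36me3 is laid down along the bodies of transcribed genes behind RNA polymerase II. In mammals 6 related SET-domain enzymes place H3K4 methylation. KMT2A and KMT2B act at promoters of developmental genes, KMT2C and KMT2D act mainly on enhancers, and SETD1A and SETD1B provide most H3K4me3 at active promoters. None works well alone: each sits on a common core of WDR5, RBBP5, ASH2L and DPY30 that stimulates its catalytic domain. In embryonic stem cells this machinery is known for its part in self-renewal and in the readiness of developmental genes for activation. The values below describe H3K36me3 over the genes that encode these proteins, and measure neither H3K4 methylation nor transcript or protein levels.

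In control cells 9 of the 10 genes held an H3K36me3 peak, and in knockdown cells 6 did. A gene was counted when the midpoint of a peak lay between its start and end. The corresponding shares of all protein-coding genes were 41.2% in control and 4.95% in knockdown. The exact Clopper-Pearson 95% interval of the share with a knockdown peak ran from 26.2% to 87.8% and covers counting error only. It treats the genes as random draws, although they were chosen by name. Of the 9 genes marked in control, 5 were also marked after knockdown (55.6%, 21.2 to 86.3), namely Kmt2a, Kmt2b, Setd1b, Wdr5 and Ash2l. The same share over all marked genes was 10.6%. Setd1a, Rbbp5, Dpy30 and Kmt2c had control peaks alone, and Kmt2d had knockdown peaks alone. By the midpoint rule 0.585% of protein-coding genes (128) had a knockdown peak and no control peak, and 101 of them had no base pair under a control peak. The remaining knockdown peaks were small. They covered a median of 2.73% of the 10 genes, compared with 72.3% in control, and the median over all protein-coding genes was 0 in both lists. All 9 knockdown peaks had caller scores between 51.2 and 81.5, where 50 is the lowest score the caller accepts. Low scores were general in the knockdown list, with a median of 77.0 over all 3040 peaks and 70.2 over these 9. The median over all control peaks was 137. With a score of 100 or more required none of the 6 genes kept a knockdown peak while all 9 control genes kept theirs. The share of all protein-coding genes at that cutoff was not computed.

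**Figure D1:**
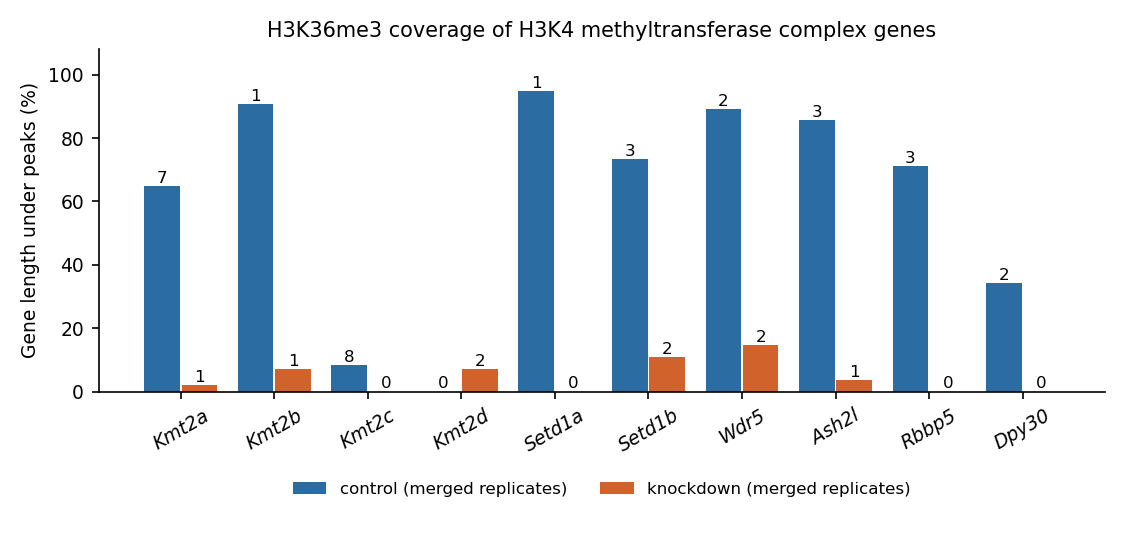
Percent of each gene's length under H3K36me3 peaks in the merged control and merged knockdown lists, with the number of peak midpoints inside the gene above each bar. Control bars reach from 8.27% (Kmt2c) to 94.8% (Setd1a) except at Kmt2d, which has none, and the highest knockdown bar is 14.8% (Wdr5).

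The merged ChIP libraries kept 36244210 tags in control and 29416169 in knockdown after removal of duplicates, and their peak lists held 30634 and 3040 peaks. Densities are therefore given as tags per kb of peak divided by the mean number of kept tags per kb of the effective genome, which was 19.4 in control and 15.7 in knockdown. Setd2, the targeted gene, had 40.1% of its length under control peaks and none under knockdown peaks, which describes its chromatin and not its transcript. Of 12 naive pluripotency markers 11 had a control peak, with a median covered share of 84.9%, whereas 0 of 6 primitive endoderm and 0 of 6 fibroblast markers did. A control peak was also present in 3 of 5 neuroectoderm markers (Sox1, Nes and Tubb3, 19.1% to 38.1% covered) and 2 of 5 mesoderm markers (Eomes at 39.8% and Hand1 at 43.1%). The uncounted naive marker was Klf2, which was covered over 95.1% by a control peak centred outside it. Of the naive markers 3 had a knockdown peak (Klf2 over 41.3%, Esrrb over 3.51% and Tfcp2l1 over 2.75%), and of the 22 markers of other cell types none did. Genome-wide, the marked share was 41.2% in the control list and only 4.95% in the knockdown list. Beside the latter, a count of 0 in 22 does not set those markers apart, and most of them were unmarked in control as well.

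The transcript starts of the 7 genes for which a table gave them lay outside the peaks. RefSeq promoter windows, each reaching from 250 bases before to 50 after a transcript start, were found for 7 of the 10 genes (10 windows, of which 4 belong to Dpy30). No window was under a control or knockdown peak. Over all 32851 windows of the table, 2.27% were under a control peak and 0.131% under a knockdown peak. The 4 windows printed here belong to the gene with knockdown peaks alone (Kmt2d), the gene with the highest knockdown coverage (Wdr5), the gene whose mark began closest to its start among the 7 (Setd1a) and the longest gene with peaks in both lists (Kmt2a). They are written 5′ to 3′ along the gene, with each CG dinucleotide in capitals:
Kmt2a, chr9:44881240-44881539, minus strand: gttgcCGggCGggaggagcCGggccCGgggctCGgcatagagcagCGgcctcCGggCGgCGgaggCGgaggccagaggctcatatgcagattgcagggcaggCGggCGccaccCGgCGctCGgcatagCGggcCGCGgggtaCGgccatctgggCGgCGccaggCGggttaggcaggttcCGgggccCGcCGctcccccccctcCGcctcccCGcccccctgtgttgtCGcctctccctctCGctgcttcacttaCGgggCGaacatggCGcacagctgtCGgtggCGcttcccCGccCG
Kmt2d, chr15:98871156-98871455, minus strand: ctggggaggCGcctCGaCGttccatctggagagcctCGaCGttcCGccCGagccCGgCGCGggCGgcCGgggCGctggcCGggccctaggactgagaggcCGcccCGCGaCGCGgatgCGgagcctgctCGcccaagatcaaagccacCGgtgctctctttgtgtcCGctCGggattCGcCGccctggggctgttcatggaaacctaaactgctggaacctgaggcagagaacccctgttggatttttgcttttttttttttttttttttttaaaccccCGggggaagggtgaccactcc
Setd1a, chr7:127777139-127777438, plus strand: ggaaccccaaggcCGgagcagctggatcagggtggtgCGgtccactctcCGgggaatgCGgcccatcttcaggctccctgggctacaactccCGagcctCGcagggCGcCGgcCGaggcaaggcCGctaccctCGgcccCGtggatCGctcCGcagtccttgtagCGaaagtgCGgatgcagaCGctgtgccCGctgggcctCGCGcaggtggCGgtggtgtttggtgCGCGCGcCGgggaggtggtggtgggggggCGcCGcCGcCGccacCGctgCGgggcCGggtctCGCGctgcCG
Wdr5, chr2:27514897-27515196, plus strand: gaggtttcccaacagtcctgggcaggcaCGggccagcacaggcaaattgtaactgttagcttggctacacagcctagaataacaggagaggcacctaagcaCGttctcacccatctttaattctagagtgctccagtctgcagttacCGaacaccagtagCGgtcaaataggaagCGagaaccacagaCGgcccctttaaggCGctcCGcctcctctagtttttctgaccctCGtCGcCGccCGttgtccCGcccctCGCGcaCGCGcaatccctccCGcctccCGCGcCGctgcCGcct
These windows hold 36 (Kmt2a), 27 (Kmt2d), 35 (Setd1a) and 22 (Wdr5) CG dinucleotides, against a median of 7 over all windows. CG was searched as these letters, which read the same on both strands, and it occurs in 94.6% of all windows. Windows with at least as many made up 6.23%, 15.5%, 6.95% and 23.1% of the table in the same order. Kmt2c had the most, with 56, a number reached by 0.195% of windows. Rbbp5 had 16. The windows of Dpy30 differed most among themselves: its outermost start, on chromosome 17 at 74323944, had 1, and the start at 74316211 had 39.

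From these starts the first control peak was reached after 1191 bp in Setd1a, 2327 bp in Wdr5, 2427 bp in Kmt2a, 6781 bp in Rbbp5, 13176 bp in Dpy30 (from its outermost start) and 36804 bp in Kmt2c. The genes were cut into 3 equal parts. In all 6 of these genes the part at the 3′ end was covered more than the part at the 5′ end, with medians of 97.2% and 29.5%, and the middle part had a median of 77.3%. The same count over all protein-coding genes was not made, so whether this is particular to these genes is not known. For Dpy30 the 5′ part, covered over 0%, began at its outermost start at 74323944 and also held its start at 74316211. Kmt2c departed from the others, with 8.20% of its 5′ part, 0% of its middle and 16.6% of its 3′ part covered.

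**Figure D2:**
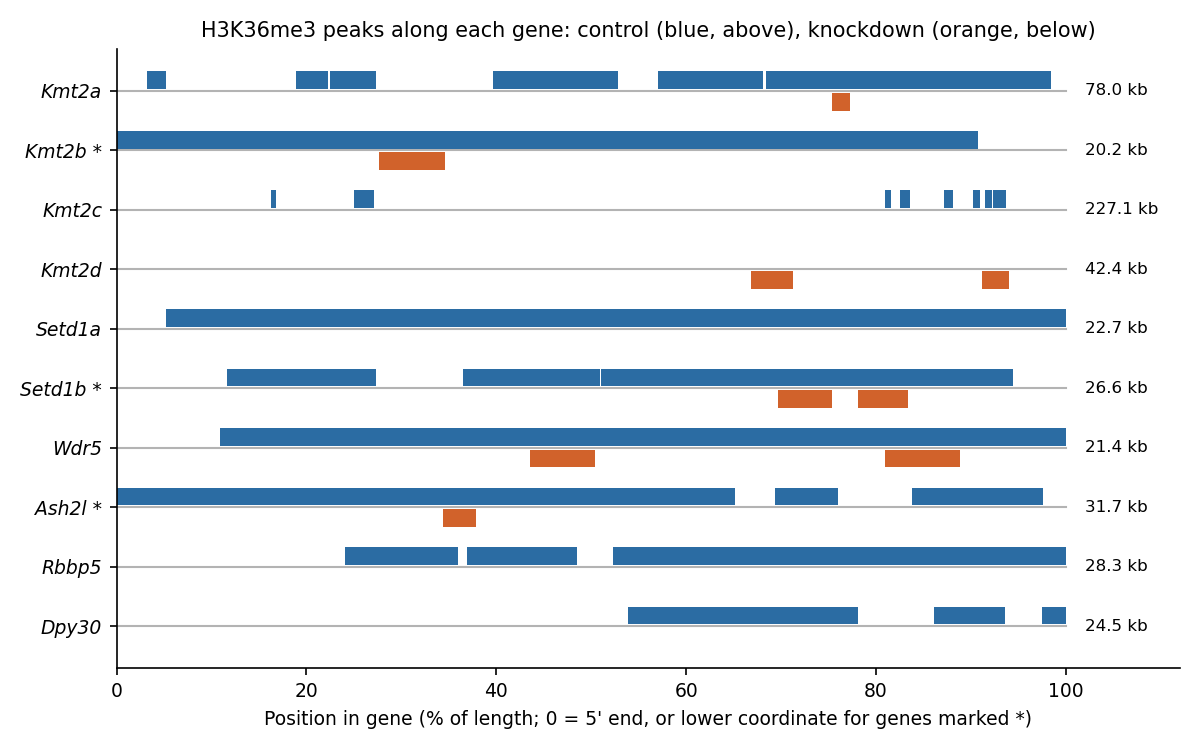
Position of control peaks (blue, above each line) and knockdown peaks (orange, below) along the 10 genes, in percent of gene length from the 5′ end, or from the lower coordinate for the genes marked with an asterisk. Control peaks fill more of the 3′ than of the 5′ part in all 6 oriented genes with a control peak, and 7 of the 9 knockdown peaks lie inside a control peak, the other 2 being those of Kmt2d.

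KMT2A and KMT2B are the mammalian relatives of fly Trithorax and carry a CXXC domain that binds unmethylated CpG. Kmt2a (Gene ID 214162; chromosome 9, 44803355 to 44881352, overlapped by the lncRNA gene Gm39326) had 7 control peaks over 64.8% of its length and 1 knockdown peak over 1.93%. Its longest control peak spanned 23481 bp with 1554 tags and a density of 3.41 times the library mean. The knockdown peak spanned 1506 bp with 54 tags and a density of 2.28. It lay inside that longest control peak, 59041 bp downstream of the start, and its summit was 1119 bp from the control summit. Kmt2b (75410; chromosome 7, 30568855 to 30589056, overlapped at its upper end by the lncRNA gene Gm32082) was covered over 90.7% by a single control peak of 19150 bp with 1634 tags. At 4.40 times the library mean this was the densest of the 31 control peaks of the 10 genes, and 821 bp of it lay beyond the gene. After knockdown 1 peak of 1413 bp with 52 tags remained, covering 6.99% of the gene at a density of 2.34. Its summit was 264 bp from that of the control peak. Both genes of the pair thus kept a short knockdown peak near the summit of their longest control peak.

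KMT2C and KMT2D are the large enzymes of the enhancer-bound complexes, and their genes gave opposite pictures. Kmt2c (231051; chromosome 5, 25271795 to 25498855) is the longest gene of the group at 227061 bp. It held 8 short control peaks of 54 to 247 tags, 8.27% of its length, at a mean density of 2.32, and no knockdown peak. Kmt2d (381022; chromosome 15, 98831669 to 98874077) had no base pair under a control peak but 2 knockdown peaks over 7.19% of its length. The peak nearer the 3′ end spanned 1201 bp with 45 tags at a density of 2.38, and the other spanned 1850 bp with 60 tags at 2.06. Their summits lay 36357 and 25871 bp from the transcript start, in the 3′ part of the gene. In control the gene fell in a stretch of 59326 bp without any peak. The nearest control peaks ended 13574 bp beyond its 3′ end and began 3345 bp upstream of its other end, with densities of 2.67 and 2.69. Tag density in this stretch is not known, and the caller's scores did not keep rising with peak length. Among control peaks of 60 to 80 tags per kb the median score was 423 for the 390 peaks of 2 to 4 kb, 725 for the 1158 peaks of 4 to 8 kb and 898 for the 660 peaks of 8 to 12 kb. It was then 666 at 12 to 16 kb, 441 at 16 to 20 kb, 266 for the 95 peaks of 20 to 25 kb and 111 for the 51 peaks of 25 to 40 kb, whose lowest score was 52.7. Within Kmt2a the 23481 bp peak with 1554 tags scored 269, while a 4787 bp peak with 289 tags scored 575. The part of this in the empty interval over Kmt2d was not tested, and without Kmt2d 5 of 9 genes had a knockdown peak.

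SETD1A and SETD1B are close relatives that share the WDR82 and CXXC1 subunits. Setd1a (233904; chromosome 7, 127777389 to 127800122) had the highest control coverage of the 10 genes, 94.8%, under a single peak of 22019 bp with 1562 tags at a density of 3.66. Only 125 protein-coding genes had a higher covered share. It had no knockdown peak. Setd1b (208043; chromosome 5, 123142040 to 123168630) was covered over 73.4% by 3 control peaks with densities of 2.87 to 3.39. It had 2 knockdown peaks of 1513 and 1398 bp with 52 and 49 tags, together over 10.9% of the gene, at densities of 2.18 and 2.23. Both lay inside its longest and densest control peak, of 11516 bp. The paralog with the higher control coverage and density was therefore the one without a knockdown peak.

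The core subunits also divided evenly between these outcomes. WDR5, a beta-propeller protein that holds the enzymes' WIN motif, is encoded by Wdr5 (140858; chromosome 2, 27515147 to 27536535). Its 2 control peaks, of 14888 and 5105 bp with 1146 and 392 tags, covered 89.0% of the gene at a mean density of 3.97. It kept the largest knockdown coverage of the group, 14.8%, in 2 peaks of 1471 and 1689 bp with 52 and 68 tags and densities of 2.25 and 2.56. Each knockdown peak lay inside a different control peak, but the 14888 bp control peak ended at 27532361 and the 5105 bp one began at 27532381. In all, 242 protein-coding genes had a higher knockdown share. ASH2L binds DPY30 and helps to activate the enzymes. Its gene Ash2l (23808; chromosome 8, 25816000 to 25847694) had 3 control peaks over 85.6%, the longest with 22848 bp and 1570 tags, and 1 knockdown peak of 1120 bp with 38 tags over 3.53%. The summit of the knockdown peak was 820 bp from that of the longest control peak.

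RBBP5 bridges WDR5 and ASH2L. Rbbp5 (213464; chromosome 1, 132477348 to 132505665) was covered over 71.3% by 3 control peaks with densities of 2.65 to 3.31, the last of which ran 3313 bp past the gene, and had no knockdown peak. DPY30 is a small protein that docks on ASH2L as a dimer. Dpy30 (66310; chromosome 17, 74299474 to 74323944) had 34.2% of its length under control peaks at a mean density of 2.53, with 2 peaks centred in the gene and another reaching over its 3′ end. It too had no knockdown peak. Dpy30 and Kmt2c were the least covered and least dense of the 9 genes marked in control.

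In order of control coverage the genes ran from Setd1a (94.8%) through Kmt2b (90.7%), Wdr5 (89.0%), Ash2l (85.6%), Setd1b (73.4%), Rbbp5 (71.3%), Kmt2a (64.8%), Dpy30 (34.2%) and Kmt2c (8.27%) to Kmt2d (0%). In order of knockdown coverage they ran Wdr5 (14.8%), Setd1b (10.9%), Kmt2d (7.19%), Kmt2b (6.99%), Ash2l (3.53%) and Kmt2a (1.93%), with the other 4 at 0. Without replicates no pair of neighbours in either order can be called different. In the 5 genes with peaks in both lists the knockdown-covered length was between 2.98% (Kmt2a) and 16.6% (Wdr5) of the control-covered length, with a median of 7.71%. The median of this ratio over all 956 genes with peaks in both lists was 20.6%. Those 956 genes had median covered shares of 47.5% in control and 5.84% in knockdown. The 5 genes here had 64.8% to 90.7% in control and 1.93% to 14.8% in knockdown. A lower ratio thus went with a higher control share, and the difference was not tested.

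Control peaks of these genes were denser in the median and more varied than their knockdown peaks. The 31 control peaks had densities from 1.93 to 4.40 times the library mean (median 2.83), and the 9 knockdown peaks from 2.06 to 2.56 (median 2.25). The medians over the complete lists were 2.38 and 2.33. By gene, the control densities of the 5 genes with peaks in both lists (3.17 to 4.40) overlapped those of the 4 without a knockdown peak (2.32 to 3.66). No peak of the knockdown list had a density under 1.91. Whether a lower remnant of the mark would have been called was not tested, and "no knockdown peak" does not mean that the mark was absent. Peaks were called separately in each list, so these densities do not compare the same positions.

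**Figure D3:**
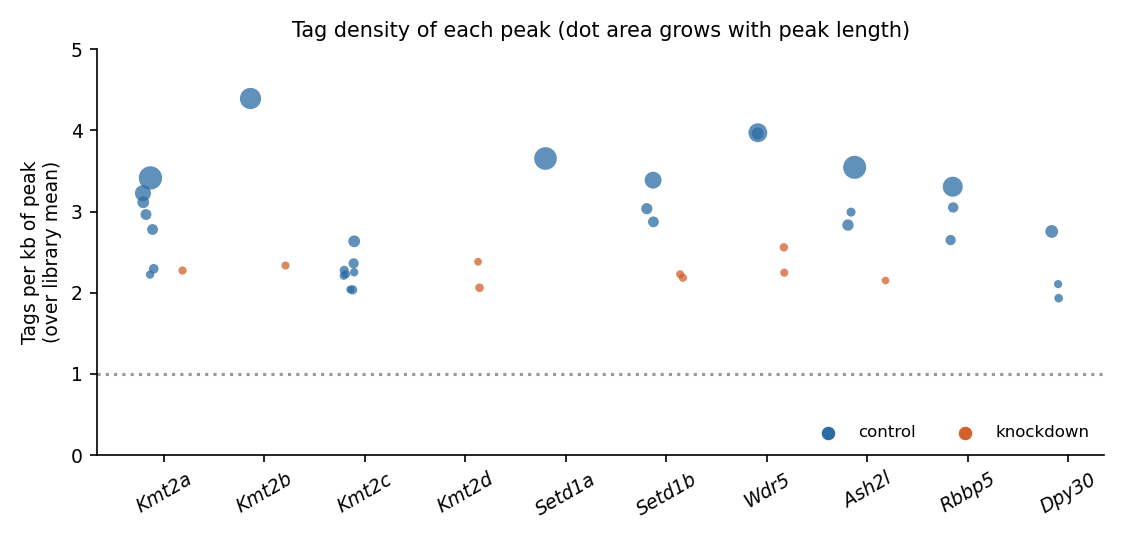
Tag density of every peak in the 10 genes, in tags per kb of peak over the mean of kept tags per kb of that merged library (dotted line at 1), with dot area growing with peak length. Control peaks (blue) spread from 1.93 to 4.40, with the 19150 bp peak of Kmt2b at the top, and knockdown peaks (orange) lie between 2.06 and 2.56.

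Knockdown peaks lay mainly within the long control peaks of these genes. Of their 8 control peaks above 10 kb, 5 were overlapped by a knockdown peak (62.5%, 24.5 to 91.5), and of the 23 shorter ones 1 was (4.35%, 0.110 to 21.9). These intervals count each peak as independent, although several share a gene. The split at 10 kb was chosen after the values had been seen, so the intervals do not test it. The 1 shorter peak was the 5105 bp peak of Wdr5, which lay next to the 14888 bp peak of that gene. Over the complete control list 20.8% of peaks above 10 kb and 5.78% of shorter ones were overlapped, and a longer peak is more easily overlapped. Gene length was also considered, since 9 of the 10 genes (all but Kmt2c) measured between 20 and 80 kb. In that range 55.1% of all protein-coding genes were marked in control and 6.25% in knockdown, compared with 8 and 6 of these 9 genes. Of the genes in that range marked in control, 10.3% were also marked in knockdown, compared with 5 of the 8 here. Counted by midpoints, a knockdown peak without a control peak was found in 0.565% of genes in that range and in Kmt2d here. Among genes of that range covered over at least 50% in control, 16.6% had a knockdown peak, and 5 of the 7 complex genes in that class did.

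**Figure D4:**
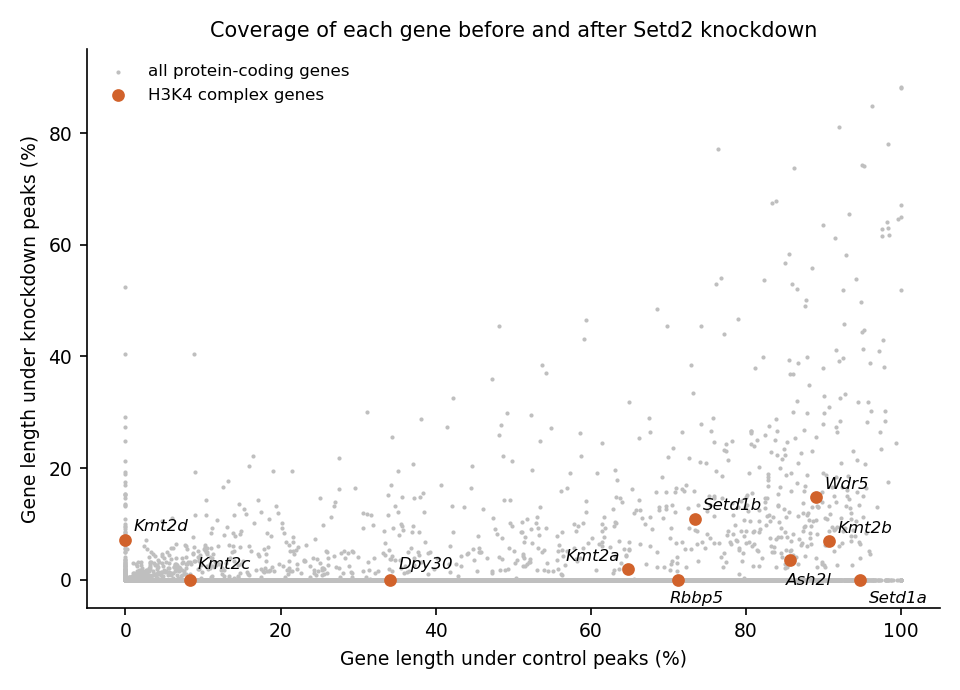
Percent of gene length under knockdown peaks against percent under control peaks for all 21887 protein-coding genes (grey) and the 10 H3K4 complex genes (orange). The 7 most covered genes sit beyond 50% in control, none of the 10 exceeds 14.8% in knockdown, and Kmt2d lies on the vertical axis.

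The genes listed alongside the H3K4 complexes were marked about as widely in control, and the share of them still marked after knockdown was near that of all genes. A list of 33 genes for accessory subunits, other SET-domain enzymes, demethylases and H3K4me3 readers was marked in 30 cases in control and in 3 after knockdown, against 9 and 6 of the 10 enzyme and core genes. All 3 were among the 30 marked in control, where the share over all control-marked genes was 10.6%. Over all protein-coding genes 41.2% were marked in control and 4.95% after knockdown. With a caller score of 100 or more required, 2 of the 33 genes (Smyd3 and Spin1) and 0 of the 10 had a knockdown peak. These counts are too small to rank the lists, and the share of all genes at that cutoff was not computed. Median covered shares in control were 31.5% and 72.3%. Of 12 accessory subunit genes, 11 were marked in control and none after knockdown. Psip1 (89.4%), which encodes a chromatin tether of the menin-bound KMT2A complex that itself reads H3K36 methylation, and Wdr82 (86.0%), the SETD1-specific subunit, were covered most. Kdm6a, the H3K27 demethylase gene of the KMT2C and KMT2D complexes, had no peak in either list. All 5 H3K4 demethylase genes had control peaks, led by Kdm5a (62.2%) and Kdm1b (39.4%), and none had a knockdown peak. Beside the 10.6% share, a count of 0 in classes as small as the demethylase and accessory genes does not set them apart. Among other SET-domain genes Kmt2e (30.7%) and Ash1l (28.8%) were marked in control alone, Setd7 and the germ-cell gene Prdm9 were unmarked, and Smyd3 had 13 control and 2 knockdown peaks over 7.23% and 0.681% of its 566094 bp. All 11 reader genes had a control peak, with Ing5 (84.7%) the most covered. Bptf, which encodes the large subunit of the NURF remodeller, went from 62.9% to 1.31%, and Spin1, the gene of a Tudor-like reader, from 10.5% to 2.42%. The difference between the lists was not tested.

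**Figure D5:**
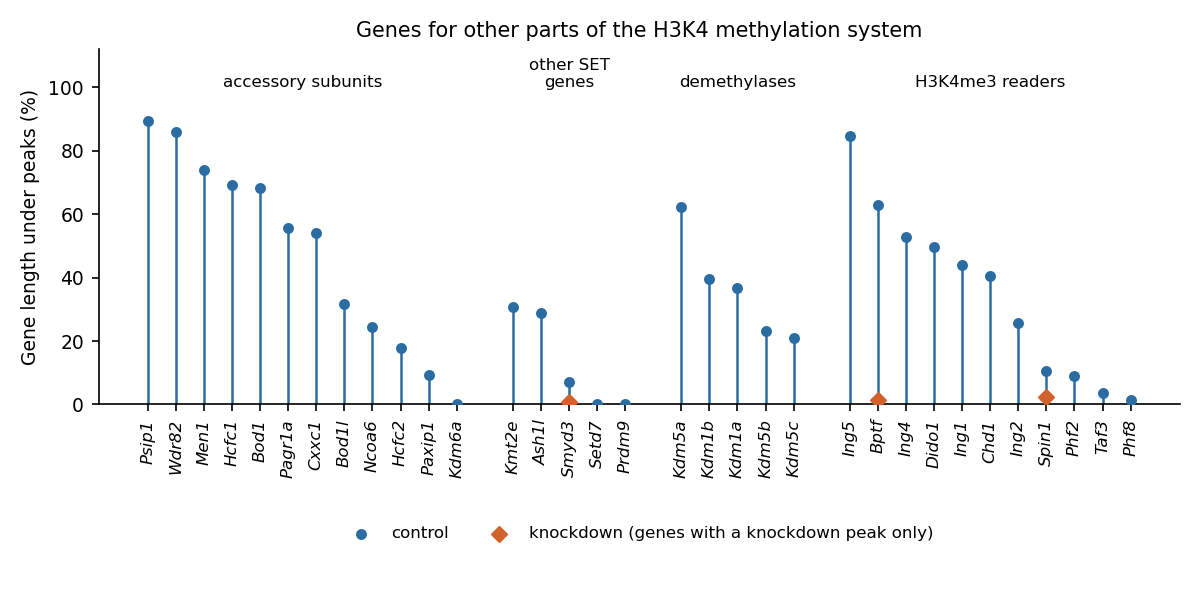
Percent of gene length under control peaks (blue) for 33 further genes in 4 classes (accessory subunits, other SET-domain genes, H3K4 demethylases and H3K4me3 readers). Knockdown coverage (orange diamonds) is shown for the genes that had a knockdown peak. Control coverage reaches 89.4% at Psip1, and the 3 diamonds, at Smyd3, Bptf and Spin1, all lie at or under 2.42%.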

How the data were processed

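H3K36me3 ChIP and input libraries of control and Setd2 knockdown cells (2 replicates each) were grouped by the labels, which do not say whether replicates were separate cultures. FastQC 0.11.5, Bowtie 1.1.2 and mm10 are named in the submitters' processing notes. MACS 1.4.2 was run by the authors on merged replicates against merged input, per the file headers, with a p cutoff of 1e-05, 1 tag kept per position and local background over 1000 and 10000 bp. Each deposited table gives a count of tags per peak, not normalized. It also gives the authors' score (minus 10 times log10 of the caller p-value), a fold over background (the authors' ratio) and an FDR in percent as deposited. Scores and FDR were used only to describe or filter peaks. The merged libraries held 42509111 and 38670982 tags before filtering. The sources used here do not give the handling of reads with several matches.

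Peaks were joined to RefSeq gene spans with Python 3.11.15, numpy 2.4.6 and pandas 2.3.3. The code was tested on simulated data. The covered share is the percent of a gene's span under peaks. Tags of a peak crossing a gene end were divided by length. Gene parts were oriented where the promoter table gives a strand (7 genes). The members and lists were chosen with earlier results of these data known. The text names all members, the associated genes with a knockdown peak or with the 2 highest control shares of their class, and for each member with a knockdown peak the 3 genes of 0.5 to 2 times its length (no Gm or Rik symbol) closest in both covered shares. Alternatives were other rules for a marked gene, score and FDR filters, an equal number of top-scoring control peaks, wider spans and whole tags of peaks. The 20 to 80 kb range, the comparison of scores by peak length, the 50% class, the split of peaks at 10 kb and the other associated genes named were chosen after the values had been seen. The deposited BED files were not used here.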

Additional observations from a re-analysis of the deposited data

How the results depend on the processing

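No paired analysis was possible because both replicates of each group were merged before peak calling, and for the same reason no replicate could be left out. The count of 9 control-marked complex genes dropped to 4 with only the 3040 top-scoring control peaks (Kmt2a, Kmt2b, Setd1b and Wdr5, all of them also marked in knockdown) and otherwise stayed at 8 or 9. The counts of 6 knockdown-marked genes and 5 marked in both were less firm. Both became 2 when peaks had to cover at least 10% of the gene (Setd1b and Wdr5), 2 with an FDR of 1% or less (Wdr5 and Ash2l) and 0 with a score of 100 or more. The FDR filter also took the control peak of Kmt2b, whose score of 1388 came with a deposited FDR of 1.42%. Neither count changed with 1 bp of overlap, an FDR of 5% or less or spans widened by 1 kb. Shares of all protein-coding genes were not computed at these alternative settings, so the drops cannot be compared with the complete lists. For the 33 associated genes the 3 knockdown-marked and 3 marked in both became 0 with at least 10% of the gene covered and 2 (Smyd3 and Spin1) with a score of 100 or more, the setting at which the complex genes had 0. The median covered share in knockdown became 0% with a score of 100 or more, and that in control 69.1% with wider spans. The 9 knockdown peaks of the complex genes held 38 to 68 tags (median 52), and the lowest count in the complete knockdown list was 30. Whether weaker remnants of the mark went uncalled at this depth was not tested.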

Other observations

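Kmt2d was not the only gene with a knockdown peak and no base pair under a control peak. There were 101 such protein-coding genes, with a median length of 64380 bp, a median knockdown-covered share of 1.98% and a median control peak-free stretch around them of 253456 bp. With 7.19% under knockdown peaks Kmt2d ranked 28 among them by covered share, it was 1 of 12 with at least 2 knockdown peaks, and its own control peak-free stretch was 59326 bp. The genes of similar length closest to it in both covered shares were Adnp2 (7.36%), Rbm5 (7.63%), an RNA-binding splicing regulator gene, and Hnrnpul1 (8.21%), an hnRNP-like gene, none of which had a control peak. Their control peak-free stretches were 50383, 50700 and 149192 bp.

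The genes closest to the other 5 complex genes with a knockdown peak were found by the same distance in the plane of control and knockdown coverage, over these 2 conditions only. For Kmt2a they were Kdm3b, an H3K9 demethylase gene covered over 64.2% and 2.40%, the transcription kinase gene Cdk12 (63.0% and 1.77%) and Gak (64.9% and 0%). For Kmt2b they were the RNA-binding protein gene Pcbp2 (90.3% and 6.29%), the pyrimidine synthesis gene Cad (92.0% and 6.03%) and Sde2 (90.7% and 8.83%). Setd1b lay closest to the chaperonin gene Cct7 (73.4% and 8.97%), Morc3 (72.6% and 12.8%) and Zfp518b (75.3% and 13.4%). Wdr5 lay closest to Rtraf (89.8% and 14.0%), Alkbh1 (89.4% and 13.1%) and Hyou1 (89.3% and 13.0%). Ash2l lay closest to the AAA ATPase gene Ruvbl1 (85.0% and 2.91%), Cep250 (86.5% and 4.02%) and the splicing coactivator gene Srrm1 (84.7% and 4.12%).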
